A study of Mus musculus with 6 samples.

Results

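The genes described here are 6 genes of astrocyte transport and secretion, Slc1a2, Slc1a3, Glul, Apoe, Clu and Cst3, in RNA libraries of the dentate gyrus granular layer (DG) and of the CA1 of the mouse hippocampus. They were chosen by name, as genes known from astrocytes. All 6 were among the 7507 genes of the deposited table. The study wrote a 4-digit DNA barcode by light onto the cDNA of chosen areas of a tissue section, so that transcripts from each area could be counted by sequencing. Sections 10 µm thick were cut from fresh frozen brain of adult mice, and the DG and the CA1 of the same section were given different barcodes. No genotype or treatment is given for these animals, and the 2 regions are the only groups. The label of the samples gives an age of 12 weeks, whereas the protocol text gives 8 to 12 months. There were 3 sections with RNA, hence 3 DG and 3 CA1 libraries, paired by section. The labels do not say whether the sections came from different animals, so the p-values below speak only for these sections. Those of Fisher's exact test compare pooled UMIs and hold no spread between sections. The others measure the spread between these sections or their libraries.

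Astrocytes take up the glutamate that neurons release, through the transporters encoded by Slc1a2 and Slc1a3, and turn it into glutamine with glutamine synthetase, encoded by Glul, for return to neurons. They also secrete the lipid carriers apolipoprotein E (Apoe) and clusterin (Clu) and the cysteine protease inhibitor cystatin C (Cst3). None of the 6 genes belongs to astrocytes alone, since microglia also express Apoe and Cst3, ependymal cells express Slc1a3 and Clu, and some neurons carry Slc1a2 or Clu transcripts.

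The libraries were shallow. They held between 2844 and 17999 UMIs (unique molecular identifiers, each counting 1 captured cDNA molecule) assigned to genes, with 28869 in the DG and 17066 in the CA1 in all. The DG library was deeper than its CA1 partner in every section, by 1.29 to 1.92 times. Levels below are UMIs of a gene per 10000 UMIs of the library, called shares. A count of 0 allows up to 3 UMIs, or a share of between 1.67 and 10.5 depending on the library, and such limits, like the exact 95% (Clopper-Pearson) intervals given with shares, cover counting error only. In bulk tissue of this kind, fewer cells of a type and less RNA per cell cannot be told apart. Sums over marker lists placed other glia beside the 6 genes. The 10 listed oligodendrocyte genes had shares of 50.3 to 83.3 in the DG and 66.8 to 101.5 in the CA1, and were lower in the DG in 3 of 3 sections. The myelin genes Mbp and Mobp had 144 and 12 UMIs. Genes of endothelial and mural cells, oligodendrocyte precursors, ependymal cells with choroid plexus, and interneurons gave 8, 11, 6 and 21 UMIs over all libraries. Microglial genes gave 8 UMIs, and the defining markers C1qa, C1qb, Csf1r, P2ry12 and Tmem119 were not among the genes listed. The dentate granule cell markers Prox1 and C1ql2 were not listed either, and the 5 listed granule cell genes and 8 listed CA1 pyramidal genes gave 18 and 23 UMIs, 10 of the latter from Pou3f1, so the check of the region labels rested on few UMIs. Synpr and Dock10, granule cell genes, had 6 and 7 UMIs, all in the DG. The CA1 pyramidal genes Wfs1 and Neurod6 had 2 each, all in the CA1. These genes were chosen for this check after their values were seen, and others went the other way. The granule cell genes C1ql3, Calb1 and Lct had 2, 2 and 1 UMIs, all in the CA1. Of the CA1 genes, Fibcd1 had its 1 UMI in the DG, and Pou3f1 had 2, 2 and 2 in the DG against 4, 0 and 0. Summed shares averaged 3.64 in the DG and 4.23 in the CA1 for the granule cell list, and 3.26 and 7.15 for the CA1 list.

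The 6 genes together gave 137 UMIs, 83 in the DG and 54 in the CA1. Slc1a2 supplied 51.1% of them, Apoe 19.0%, Cst3 14.6%, Slc1a3 8.76%, Clu 3.65% and Glul 2.92%. Slc1a2 and Apoe had a UMI in all 6 libraries, as did 5.25% of the genes listed. Slc1a3 and Cst3 were found in 5 libraries, Clu in 4 and Glul in 3, and 7 of the 36 values of a gene in a library were 0.

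The sum of the 6 genes was 23.3, 26.2 and 46.0 UMIs per 10000 in the DG of sections 1, 2 and 3, against 27.8, 31.6 and 39.1 in the CA1. Section 3 was the highest in both regions, and the ranges of the regions overlapped. The DG averaged 31.9 ± 12.4 and the CA1 32.8 ± 5.73 (SD, n = 3 sections). Within sections, the log2 ratio of DG over CA1 was -0.25, -0.27 and 0.24, a mean of -0.095 with an SD of 0.29, so the mean was smaller than its spread. The odds ratio of the pooled UMIs was 0.908, with an exact 95% interval of 0.637 to 1.31. No p-value was computed for the sum.

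**Figure D1:**
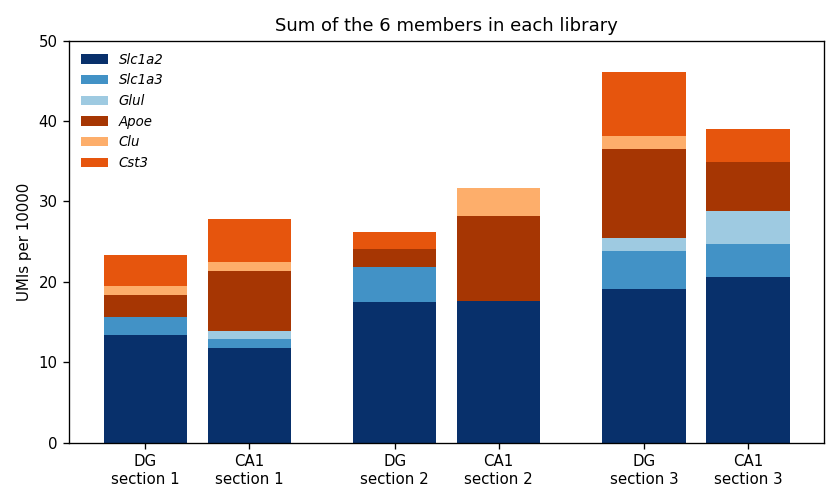
Stacked bars of UMIs per 10000 library UMIs for the 6 genes in the DG and CA1 library of each section, with transport and conversion genes in blue and secreted genes in orange. The bars reach from 23.3 to 46.0, the bars of section 3 are the tallest in each region, and Slc1a2 is the largest single block in every library.

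The sum also varied from section to section. With the DG and CA1 of a section pooled, the sum of the 6 genes was 24.9 in section 1, 28.3 in section 2 and 43.0 in section 3. The pooled share of Slc1a2 ran from 12.8 in section 1 through 17.5 in section 2 to 19.7 in section 3. The differences between sections were not tested.

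Slc1a2 (chr2:102658239-102790784 on the plus strand of GRCm38.p6, the assembly behind mm10) encodes the transporter that carries out most glutamate uptake in the forebrain. It had 24, 8 and 12 UMIs in the DG of sections 1, 2 and 3, against 11, 5 and 10 in the CA1. As shares these were 13.3, 17.5 and 19.1 for the DG against 11.8, 17.6 and 20.6 for the CA1. Each DG library was close to the CA1 library of its own section, and section 1 was the lowest in both regions. Slc1a2 averaged 16.6 ± 2.96 over the DG libraries and 16.6 ± 4.48 over those of the CA1 (SD, n = 3 each), and the mean difference of DG minus CA1 was -0.00207 with an SD of 1.54 between sections. The odds ratio of the pooled UMIs was 1.00 with an interval of 0.602 to 1.69. Regional differences within that interval were thus not excluded, and it holds no spread between sections. An exact two-sided permutation test of the shares gave p = 1, where 3 libraries against 3 cannot go below 0.1, and Fisher's exact test on the pooled UMIs also gave p = 1. The log2 ratios within sections were 0.18, -0.0068 and -0.11.

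This near equality rested on removing the count of 1 that had been added to every gene in every library before deposition. The added counts made up 29.4%, 62.1% and 54.4% of the deposited totals of the DG libraries and 44.5%, 72.5% and 60.7% of those of the CA1 libraries. In every section this part was larger in the shallower CA1 library than in the DG library. With the additions kept, the ratio of mean CPM of DG over CA1 was 1.22 for Slc1a2, against a ratio of mean shares of 1.00 without them, and the exact permutation p was 0.2. For the sum of the 6 genes the ratio with the additions was 1.10, against a ratio of mean shares of 0.971 without them and of 0.909 from pooled UMIs.

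Slc1a3 (chr15:8634124-8710807, minus strand), which encodes the other astrocytic glutamate transporter and is prominent in the radial astrocytes of the DG, gave 12 UMIs. By section, the DG had 4, 2 and 3 of them and the CA1 had 1, 0 and 2. The DG shares were 2.22, 4.37 and 4.76, against 1.07, 0 and 4.11 for the CA1, where the 0 of 2844 UMIs allows up to 10.5. Slc1a3 was the only one of the 6 genes whose DG share was above the CA1 share in 3 of 3 sections, although the CA1 of section 3 lay above the DG of section 1, and the ranges overlapped. Its mean was 3.79 ± 1.37 for the DG and 1.73 ± 2.13 for the CA1, a difference of 2.06 with an SD of 2.02 (exact permutation p = 0.2). Fisher's exact test gave p = 0.553, with an odds ratio of 1.77 and an interval from 0.443 to 10.2.

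Glul (chr1:153899929-153909723, plus strand) was near the limit of detection. By section, the DG had 0, 0 and 1 of its 4 UMIs and the CA1 had 1, 0 and 2, or shares of 0, 0 and 1.59 against 1.07, 0 and 4.11. The mean shares were 0.529 ± 0.917 and 1.73 ± 2.13, and the exact permutation p was 0.7. The odds ratio of 0.197 had an interval of 0.00375 to 2.45, which spans both directions. With Slc1a2 and Slc1a3, Glul made a transport and conversion group at 15.6, 21.9 and 25.4 for the DG against 13.9, 17.6 and 28.8 for the CA1, with a mean log2 ratio of 0.099 and an SD of 0.25 over sections.

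**Figure D2:**
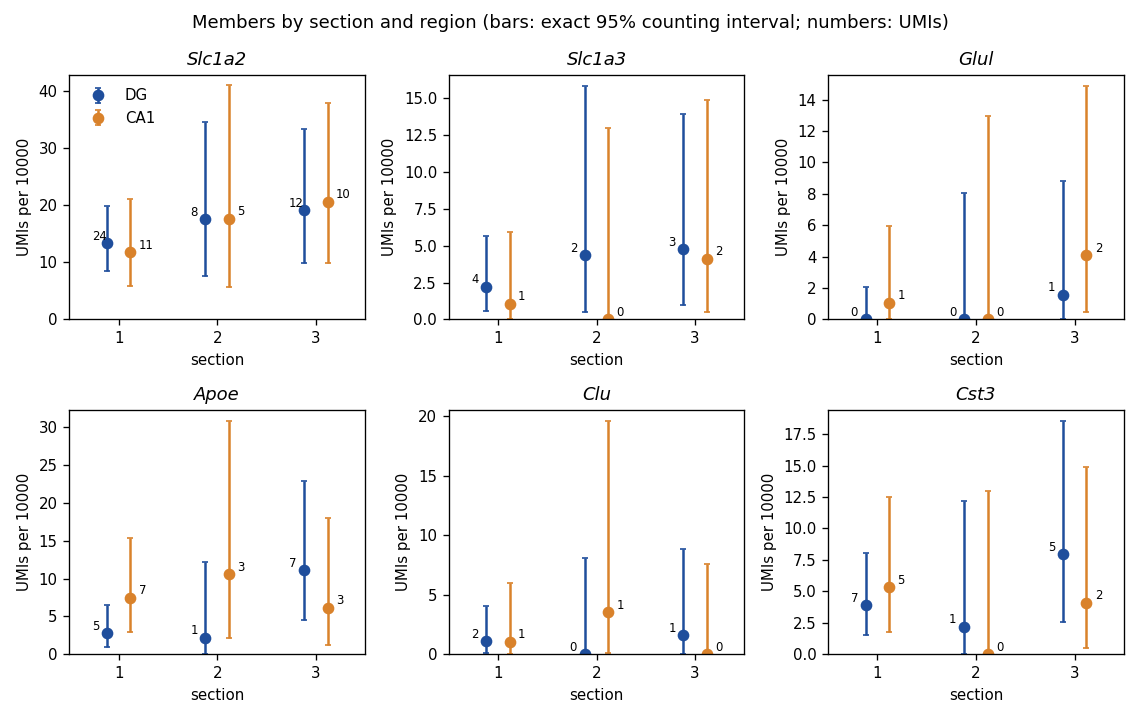
Share of UMIs (per 10000, vertical axis, scaled separately for each gene) of each of the 6 genes by section (horizontal axis), with the DG in blue and the CA1 in orange, exact 95% counting intervals as bars and the UMI count beside each point. The Slc1a2 points of a section nearly coincide, from 11.8 to 20.6, and Apoe is below the CA1 in the DG of sections 1 and 2 but above it in section 3.

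Among the secreted genes, Apoe (chr7:19696244-19701310, minus strand) had the widest range. It had 5, 1 and 7 UMIs in the DG libraries, compared with 7, 3 and 3 in the CA1 libraries. The DG shares were 2.78, 2.19 and 11.1, against 7.48, 10.5 and 6.17 for the CA1. In sections 1 and 2 the DG was below every CA1 library, while the DG of section 3 was the highest of the 6 libraries. The log2 ratios within sections were accordingly -1.43, -2.27 and 0.85. The means were 5.36 ± 4.99 for the DG and 8.07 ± 2.25 for the CA1, and neither the exact permutation test (p = 0.5) nor Fisher's exact test (p = 0.222, odds ratio 0.591, interval 0.252 to 1.38) passed the threshold of 0.05. Without the DG library of section 3 the mean difference was -5.58 and the exact permutation p was 0.1, the smallest that 2 libraries against 3 allow. Without section 2 it was 0.123.

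Clu (chr14:65968483-65981548, plus strand) had 5 UMIs, of which the DG had 2, 0 and 1 by section and the CA1 1, 1 and 0. Its shares were 1.11, 0 and 1.59 against 1.07, 3.52 and 0. The counting intervals of all 6 libraries overlapped, and the odds ratio of 0.887 had an interval from 0.102 to 10.6 (exact permutation p = 0.9).

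Cst3 (chr2:148871722-148875512, minus strand) gave 20 UMIs, of which the DG libraries held 7, 1 and 5 and the CA1 libraries 5, 0 and 2. The DG shares were 3.89, 2.19 and 7.94, against 5.34, 0 and 4.11 for the CA1. As with Apoe, section 3 was the highest of the DG libraries, and the regions overlapped. The means were 4.67 ± 2.96 and 3.15 ± 2.80, with an exact permutation p of 0.6 and an odds ratio of 1.10 (interval 0.407 to 3.25).

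The 3 secreted genes together were at 7.78, 4.37 and 20.6 for the DG, against 13.9, 14.1 and 10.3 for the CA1. They thus lay below the CA1 in the DG of sections 1 and 2 and above it in section 3, and the mean log2 ratio of -0.51 was smaller than its SD of 1.38. Of the UMIs of the 6 genes, they made up 33.3%, 16.7% and 44.8% on the DG side and 50.0%, 44.4% and 26.3% on the CA1 side. The exact 95% intervals of these percentages were wide, from 2.09% to 48.4% in the DG of section 2 and from 9.15% to 51.2% in the CA1 of section 3, and all 6 overlapped. The 2 listed genes of ependymal cells and choroid plexus gave 1, 0 and 3 UMIs in the DG libraries, compared with 1, 0 and 1 in the CA1 libraries. The 3 UMIs in the DG of section 3 were of Ttr, which the choroid plexus expresses at high level, and are no more than a count of 0 allows. The 4 listed microglial genes gave 0 UMIs in both libraries of section 3. The part of other cell types in the Apoe and Cst3 values was not tested.

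**Figure D3:**
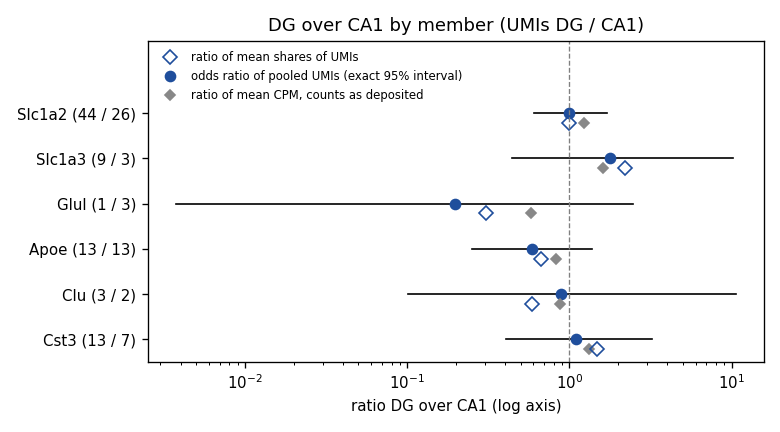
Ratio of DG over CA1 for each gene on a log axis, with the odds ratio of pooled UMIs as blue points, its exact 95% interval as a line, the ratio of mean shares of UMIs as open diamonds and the ratio of mean CPM of the counts as deposited as grey diamonds. Every interval crosses 1 (dashed line), the narrowest is that of Slc1a2 (0.602 to 1.69), and its grey diamond stands at 1.22.

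Across all genes, the quasi-likelihood test of edgeR could use few of the counts. Its filter on low counts kept 43 genes, none of the 6 among them, and the tested gene with the fewest UMIs had 56 in total. The filter asks for a level relative to depth in enough libraries rather than for a total, and Slc1a2 failed it with 70 UMIs. It called 0 of 43 genes different between DG and CA1 (0%) at an adjusted p below 0.05 (Benjamini-Hochberg). At an unadjusted p below 0.05 edgeR had 3 genes and DESeq2 0. Without the filter, edgeR called 0 of 7507 genes (0%), with 127 below 0.05 unadjusted and none of the 6 genes among them. In that fit the log2 fold change of DG over CA1 was 0.24 (SE 0.56) for Slc1a2, 1.05 (SE 1.14) for Slc1a3 and -1.62 (SE 1.67) for Glul. It was -0.43 (SE 0.80) for Apoe, 0.015 (SE 1.06) for Clu and 0.42 (SE 0.91) for Cst3. The adjusted p-values of edgeR for the 6 genes lay between 0.663 and 0.994. The median of all genes in this fit was 0.46, and 0.25 when total UMIs replaced the TMM factors. Relative to the first median, Slc1a2 was at -0.22, Slc1a3 at 0.59, Glul at -2.08, Apoe at -0.89, Clu at -0.45 and Cst3 at -0.038. That median is taken over all 7507 genes, most of which had fewer than 10 UMIs.

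The direction of the 6 genes was also set beside that of the other genes, although so few genes cannot show whether they stand apart. Of the 999 genes with at least 10 UMIs, 13.8% were higher in the DG in all sections and 11.8% lower. Of the 4 of the 6 genes with that many UMIs (Slc1a2, Apoe, Cst3 and Slc1a3), 1 was higher in all sections (Slc1a3) and 0 were lower. None of the 6 had DG and CA1 shares that did not overlap, which was the case with the DG higher for 7.11% of the 999 genes and with the DG lower for 5.11%. The median log2 ratio of pooled shares was 0.068 for the 4 genes and 0.042 for the 999, leaving out 7 of them without a finite ratio.

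The level of each gene was next compared over all 6 libraries. As a share of UMIs, Slc1a2 was the highest at 16.6 ± 3.39 (SD, n = 6 libraries), followed by Apoe at 6.71 ± 3.77, Cst3 at 3.91 ± 2.71 and Slc1a3 at 2.76 ± 1.96. Clu at 1.21 ± 1.30 and Glul at 1.13 ± 1.61 were last. Only 51 genes of the table, Slc1a2 included, had as many UMIs as Slc1a2, against 249 for Apoe. Between Slc1a2 and Apoe the libraries did not overlap, since the lowest Slc1a2 value (11.8) was above the highest Apoe value (11.1), while each later neighbour in the order overlapped the one before it.

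The cDNA was primed at the poly(A) tail and counted by UMI, so these counts need not scale with transcript length. For comparison, the shares were also divided by exon length, and which scale is closer to the number of transcripts was not tested. Slc1a2 has 12062 bases of exon over its 4 curated transcripts, against 1586 for Apoe and 796 for Cst3. On this scale of UMIs per kilobase of exon the order changed, with Cst3 at 4.91 ± 3.40 UMIs per 10000, Apoe at 4.23 ± 2.38 and Slc1a2 at 1.38 ± 0.281. Clu followed at 0.670 ± 0.717, Slc1a3 at 0.655 ± 0.466 and Glul at 0.402 ± 0.573. Cst3 and Apoe did not differ beyond their spread, nor did the last 3 genes. The place of Slc1a2 depended on which transcript is counted, as its shortest has 2127 bases and would put it at 7.82 per kilobase. The span of an antisense gene, Gm13872, overlaps a Slc1a2 exon, and the counting ignored strand. Reads in the overlap could thus not be assigned by strand, and the effect on the Slc1a2 count was not tested.

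**Figure D4:**
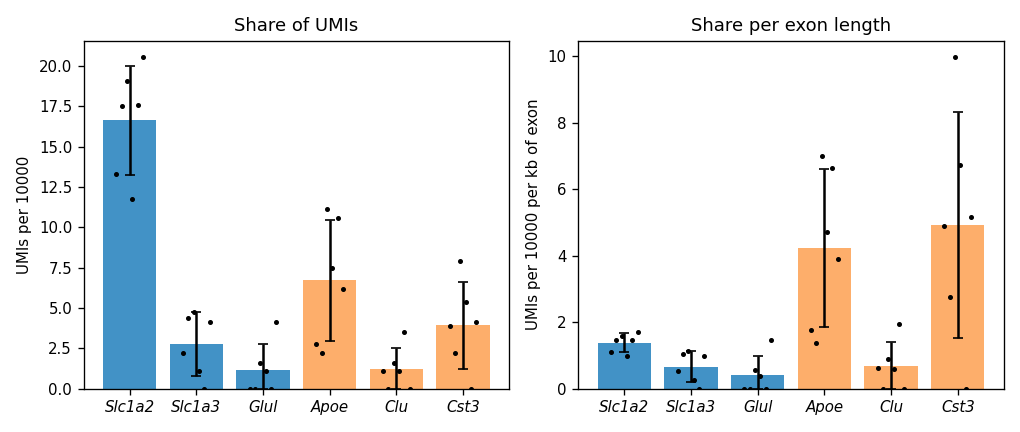
Mean share of UMIs (left, per 10000) and mean share per kilobase of exon (right) of the 6 genes, with the SD over 6 libraries as error bars, drawn no lower than 0, and each library as a dot. Slc1a2 is the tallest on the left at 16.6, whereas Cst3 (4.91) and Apoe (4.23) are the tallest on the right.

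Other genes that astrocytes use were then examined from a list of 40, of which 29 were in the table and 7 had at least 10 UMIs. Gfap, Gja1, Aldh1l1 and 8 others were not listed. Ntm, a cell adhesion gene that neurons also express, held 163 of the 376 UMIs of the list. The whole list was at 68.9, 105.0 and 100.03 for the DG against 74.8, 91.4 and 92.5 for the CA1, with the DG higher in 2 of 3 sections. Without Ntm, the other 28 genes summed to 43.3, 70.0 and 50.8 for the DG against 37.4, 52.7 and 43.2 for the CA1. The DG sum was the higher one in 3 of 3 sections, with log2 ratios of 0.21, 0.41 and 0.24. This order rested on S100b, since without it, an omission chosen after seeing the data, the log2 ratios were 0.21, 0.031 and -0.00049. For the 6 genes the DG sum was above the CA1 sum in 1 of 3 sections. The difference between these sums was not tested.

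S100b, a calcium-binding protein gene of astrocytes that oligodendrocytes express as well, had 18, 9 and 10 UMIs in the DG libraries, compared with 8, 1 and 4 in those of the CA1. Its shares did not overlap between regions, at 15.2 ± 4.88 for the DG and 6.76 ± 2.82 for the CA1. Its exact permutation p was 0.1, the smallest possible, as for 333 of the 7507 genes, and its Fisher's exact p was 0.109. Of the 999 genes with at least 10 UMIs, 7.11% also had shares that did not overlap, with the DG higher. Sparcl1, Mt3, Cpe and Slc4a4 had 10 to 14 UMIs each, with exact permutation p-values of 0.5 to 1.

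**Figure D5:**
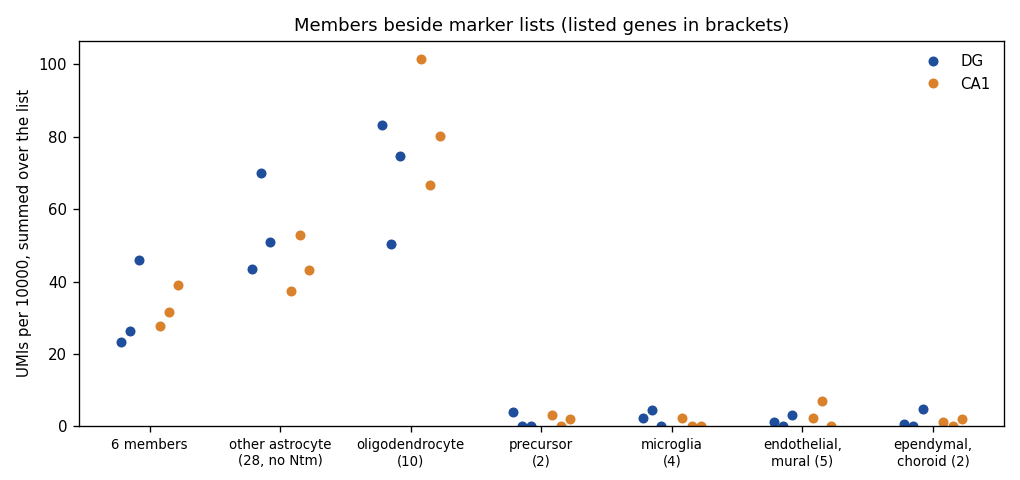
Summed UMIs per 10000 in each library for the 6 genes and for lists of marker genes, with the number of listed genes in brackets, the DG in blue and the CA1 in orange (3 sections each, in order from left to right). The 6 genes sit at 23.3 to 46.0, the other astrocyte genes without Ntm at 37.4 to 70.0 and the oligodendrocyte genes at 50.3 to 101.5, while no value of the other 4 lists drawn is above 7.03.

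The partners of the 6 genes were sparse. Of 19 genes of the glutamate and glutamine cycle, 11 were listed, and only Slc17a7, the vesicular glutamate transporter of cortical neurons, had at least 10 UMIs. Its UMIs by section numbered 16, 2 and 3 for the DG and 6, 2 and 1 for the CA1, with means of 6.01 ± 2.50 and 5.17 ± 2.71 (exact permutation p = 0.7). Of 19 genes of lipoprotein receptors and lipid export, which bind or lipidate apolipoproteins, 11 were listed. Sorl1, a sorting receptor that binds apolipoprotein E, had shares of 6.11, 10.9 and 9.53 for the DG against 5.34, 28.1 and 8.22 for the CA1, where the CA1 of section 2 was far above the rest (exact permutation p = 0.9). Lrp1, an endocytic receptor for apolipoprotein E, had 4, 2 and 0 UMIs against 5, 1 and 2 (exact permutation p = 0.3). Of the 12 cathepsin genes, whose family holds the proteases that cystatin C inhibits, 5 were listed, and Ctsb had 1, 2 and 4 UMIs against 3, 0 and 3 (exact permutation p = 0.7). None of these genes passed the filter of edgeR, so the main fit did not test them, and without the filter it called 0 of 7507 genes (0%).

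Among the 43 genes deep enough for the edgeR test, the shares most like the sum of the 6 genes over the 6 libraries were those of Ntm (Pearson r = 0.927), Son (0.788), which encodes a splicing factor, and Pcsk2 (0.745), which encodes a prohormone convertase. Ntm was at 25.6, 35.0 and 49.2 for the DG against 37.4, 38.7 and 49.3 for the CA1, lowest in the DG of section 1 and highest in both libraries of section 3, as the 6 genes were. These correlations describe 6 libraries that share sections, and no test was made of them.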

How the data were processed

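RNA libraries of the DG and the CA1 of 3 sections were used, 6 in all. The chromatin libraries of the same experiment were not analysed here. The authors deposited counts of UMIs per gene for each library, with 1 added to every value. By the submitters' processing notes and the study's methods, UMIs were extracted and counted with UMI-tools, barcodes were split with cutadapt 4.1, reads were mapped to mm10 with STAR 2.7.9a and assigned to genes with featureCounts (Subread 2.0.3) under default options, which ignore strand. The deposited CPM values and the columns of fold and log10 ratios between regions, which the authors made from these counts, were not used, and a line of column totals was left out.

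Here 1 was subtracted from each count, and shares were taken over the UMIs of the library. All genes were compared with edgeR 4.0.16 (limma 3.58.1, R 4.3.3) by its quasi-likelihood test with TMM, filterByExpr by region (minimum count 10) and Benjamini-Hochberg adjustment. This step was tested on simulated data. DESeq2 1.42.0 was run on the genes that passed the filter. As none of the 6 genes passed, each was compared by a two-sided exact permutation test of shares (20 splits) and by Fisher's exact test on pooled UMIs, in Python 3.11.15 (pandas 2.3.3, numpy 2.4.6, scipy 1.17.1). Fisher's test compares the pooled libraries only. Benjamini-Hochberg adjustment of either test over the 7507 genes gave 1 for each of the 6 genes. RefSeq's GRCm38.p6 annotation gave positions and exon lengths.

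The DG and CA1 libraries of 1 section share its tissue, which pairs them. Their deviations from the region means correlated at 0.545, 0.312 and 0.00735 in sections 1, 2 and 3 over 43 genes. The main fit and the exact permutation tests left the pairing out, as the study averages replicates within a region. The 6 genes and the gene lists were chosen with earlier results of these data known. Named genes were all 6, the genes of the other lists with at least 10 UMIs (at most 6 a list), and the 3 genes past the filter whose share correlated best with the sum of the 6. Some genes that meet this rule are not reported here. Alternatives were other size factors, no filter, DESeq2, section as a block, log2(CPM + 1) values, the counts as deposited, and leaving out each section, each library and each of the 6 genes.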

Additional observations from a re-analysis of the deposited data

How the results depend on the processing

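The number of genes that differed between DG and CA1 was 0 under 16 of 17 alternatives and 1 without the filter and with section as a replicate block. The 6 genes were not called under any alternative. Under the other size factors, DESeq2 and the block with the filter, none of the 6 genes entered the test, so these give no value for them. Slc1a2 entered 6 fits on the counts as deposited or on fewer libraries, with log2 fold changes of 0.042 to 0.31 and adjusted p-values of 0.957 to 0.982 by edgeR. The log2 ratio of the sum of the 6 genes was below 0 in 11 of 14 alternatives. It was above 0 with TMM (0.014), with the counts as deposited (0.12) and without Apoe (0.098), all within 1 SD, and it lay between -0.26 and -0.0072 when a section was left out.

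The direction of Slc1a2, whose difference in share was near 0, turned with log2(CPM + 1) values (0.022), with the counts as deposited (1.62 per 10000), and in edgeR without the filter, alone (0.24), with the block for pairing (0.26) or with total UMIs (0.013, chosen after seeing the data). When a section or library was left out it ran from -2.44 to 1.96. Clu turned in edgeR without the filter (0.015, and 0.0041 with the block). The median of all genes was 0.46 in both of these fits and 0.25 with total UMIs. Relative to these medians, Clu was at -0.45 alone and -0.46 with the block. Slc1a2 was likewise at -0.22 alone, -0.20 with the block and -0.24 with total UMIs. Those medians are over all 7507 genes, most of which had fewer than 10 UMIs. For genes with at least 10 UMIs and a finite ratio, the median log2 ratio of pooled shares was 0.042. The values relative to the medians are therefore not read as a lower level in the DG. With a library or section left out, Clu ran from -1.74 to 0.815. Under the same omissions Apoe ran from -6.53 to 0.123 and Cst3 from -0.113 to 3.01. Slc1a3 (0.903 to 3.25) and Glul (-2.06 to -0.00509) turned under none of 15 alternatives. Of these, 1 was the sign-flip test, which keeps the same difference and could not turn. The alternatives also reuse the same 12 UMIs of Slc1a3 and 4 of Glul. The sign-flip test within sections, which cannot go below 0.25, gave p-values of 0.25 to 1 (exact). Depth limits all of these, as the 6 genes had 137 UMIs together and 5 of them at most 26. The groups of 3 libraries were too small for a search for outlying samples.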
